A study of Mus musculus with 45 samples.

Results

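The genes of the cytosolic ribosome were followed across 3 phagocyte populations of the mouse lung before and after endotoxin. Members were chosen by symbol: every gene named Rpl or Rps with a number, the stalk genes Rplp0, Rplp1 and Rplp2, and Rpsa, which gave 85 of the 23594 genes in the deposited table (33 of the small subunit and 52 of the large subunit). A gene was tested if it reached 5 TPM (the table's length-scaled unit of transcript abundance) in at least 2 libraries. By that filter 71 of the 85 members entered the test, and the other 14 are described by level alone.

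Lungs came from C57BL/6J mice with no allele or transgene named, and 3 kinds of cell were sorted from them by flow cytometry. They were macrophages of the airspace (alveolar, AM), macrophages of the lung tissue (interstitial, IM) and monocytes labelled inflammatory (iMo). Animals were either at 0h or had received lipopolysaccharide (LPS, the outer membrane endotoxin of Gram-negative bacteria) into the peritoneal cavity (ip) 2, 6 or 20h earlier; the labels give 20h for the time that the series text gives as 22h, and they state no age, sex or vehicle. The 27 libraries used, of 45 in all, fall into 12 groups: AM at 0h with 4 libraries, AM at 6h with 3, and the other 10 groups with 2 each. The labels do not say whether replicates came from separate animals or pools, so each p-value speaks only of the spread among these libraries, which may be technical. Library titles end in a letter and a title code of digits. Endings A171227 to D171227 mark 7 of the 8 libraries of 0h, and endings A161219 and B161219 mark 14 ip libraries. A code without a letter, written N160623 here, marks 1 library in each of 6 groups: AM at 0h, 2h, 6h and 20h, and IM at 2h and 6h. What the codes stand for is not stated. The iMo libraries of 0h end in A171227 and B171227 and those of ip in A161219 and B161219, and the IM libraries of 0h end in A171227 and B171227 and those of ip in A161219, B161219 or N160623. In both populations the treatment and the code therefore cannot be told apart.

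Each ribosome pairs a small subunit, which reads the mRNA, with a large subunit, which forms the peptide bond, and each ribosomal protein is normally needed in about the same number of copies. Their mRNAs belong to the TOP class, which start with a run of pyrimidines at the cap; binding of that run by LARP1 holds them back from translation when mTOR signalling is low. Mammalian genomes also hold many processed pseudogenes copied from these mRNAs, so short reads of one member often match several loci.

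The start sites are shown because the TOP tract lies there. RefSeq windows (GRCm38.p6) of 250 bases before to 50 bases after the start were matched by symbol to 64 of the 85 members. As a stand-in for the tract, CTTTC was searched on the gene's strand within 10 bases of the start on either side. That string was found in 11 of 64 members (17.2%), against 2.91% of the 27025 genes with a window. Other pyrimidine runs were not searched, so this is not the share of members with the tract. The 5 members printed have that match, lie outside the chromosomes not printed here and fell in iMo at 6h (described below); capitals mark CTTTC, and each line runs from 20 bases before the start to 20 bases into the transcript.
Rpl18, chr7:45718051-45718090 on the + strand: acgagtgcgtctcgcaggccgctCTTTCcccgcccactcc
Rpl35a, chr16:33056462-33056501 on the + strand: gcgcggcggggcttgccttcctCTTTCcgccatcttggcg
Rpl7a, chr2:26910787-26910826 on the + strand: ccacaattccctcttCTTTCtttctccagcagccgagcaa
Rplp2, chr7:141447631-141447670 on the + strand: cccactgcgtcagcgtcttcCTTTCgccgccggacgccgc
Rps10, chr17:27635225-27635264 on the - strand: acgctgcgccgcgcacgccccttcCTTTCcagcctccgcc
The match lies wholly within 10 bases of the annotated start in all 5 lines. In Rpl7a the marked match ends just before the start, outside the annotated transcript. A further CTTTC in that line, which overlaps the marked match and spans the start, is not capitalised. In the other lines the match lies within the transcript. CTTTC was found near the start of 5 of the 37 members with a window that fell in iMo at 6h, and of 3 of the 16 tested members with a window that were not called there. CCGGAAG, the core bound by GABP and other ETS factors, was found on either strand of the whole window in 26 of 64 members (40.6%) and in 9.93% of all genes. AAGATGGC, the core bound by YY1, was found in 6 of 64 members (9.38%) and in 3.19% of all genes. The 3 motifs do not contain one another.

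Levels of the members spread far more widely than the fixed make-up of the ribosome. Taking the mean of the 12 group means, 21 members were from 100 to 1000 TPM, 34 from 10 to 100, 24 from 1 to 10 and 5 under 1 TPM. Among the highest were Rpl8 (840 TPM), Rps9 (811), the stalk protein Rplp1 (776) and Rps14 (723). The lowest were Rpl10l, Rpl24, Rpl28, Rpl23a and Rpl36a. Several members with central roles were listed near 0: Rps6, the substrate that gives S6 kinase its name, had 3.66 TPM, Rpl5, which binds 5S rRNA, had 5.76, its partner Rpl11 had 1.17, and Rpsa, the protein also known as the laminin receptor precursor, had 8.49.

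The order of the levels followed how much of each coding sequence is found nowhere else. For 83 members with a coding sequence in GENCODE M21 (GRCm38), every 50-base window was searched in the annotated transcripts of all other loci, and 30 members had no unique window, some sharing windows with up to 120 annotated pseudogenes. Leaving out the 6 of them that are paralogues with names ending in l or l1, a choice made after the values were seen, the median level was 2.93 TPM for the 30 members with no unique window, 48.6 TPM for 27 members with up to 20%, 254 TPM for 9 members with 20 to 50%, and 326 TPM for 11 members above that. Across those 77 genes Spearman's rho between level and unique share was 0.87, against 0.09 for coding length, and over all 83 it was 0.68 for unique share; this is a description across genes of the same libraries. Of the 14 members that did not pass the filter, 12 had no unique window, and the exceptions were Rpl10l and Rpl39l. How the authors counted reads that match several places is not given in the sources used here, so low listed levels of such members, Rps6, Rpl11 and Rpl24 among them, are uncertain.

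**Figure D1:**
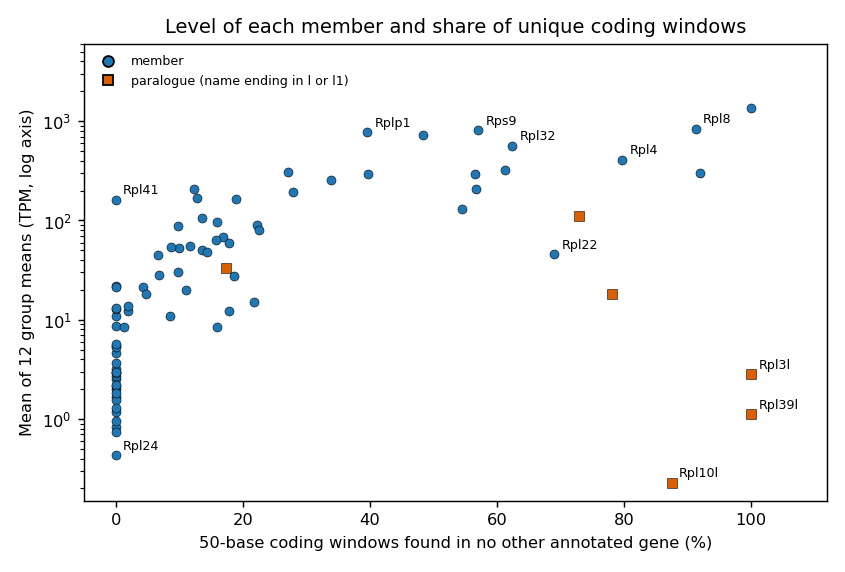
Level of 83 members (mean of 12 group means, TPM, log axis) against the percentage of 50-base windows of the coding sequence found in no other annotated gene. Circles are members and squares the paralogues with names ending in l or l1. Members with no unique window lie between 0.433 and 162 TPM, and Rpl8, with 91.3% unique windows, is at 840 TPM.

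A group of short members tracked the title code. Rps28, a small-subunit protein, had 0 TPM in AM 0h A171227, C171227 and D171227 and 133 TPM in AM 0h N160623. In IM at 2h it had 0 TPM in the A161219 library and 83.4 TPM in the N160623 library. Across the 6 groups that hold such a library, Rps28 was 4.99 to 7.65 log2 units higher in it than in the rest of the group, relative to the median of all genes, and Rpl36, Rpl35, Rpl37a, Rpl41, Rps25 and Rpl19 were each at least 2.01 units higher in all 6. Those 7 members are among only 9 genes (0.101% of 8937) that passed 2 units in all 6 groups. Altogether 40 of the 71 members (56.3%) were above the all-gene median in all 6, against 9.48% of all genes. The median difference of a member had a Spearman's rho of -0.37 with coding length and -0.06 with unique share (69 genes, a description).

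**Figure D2:**
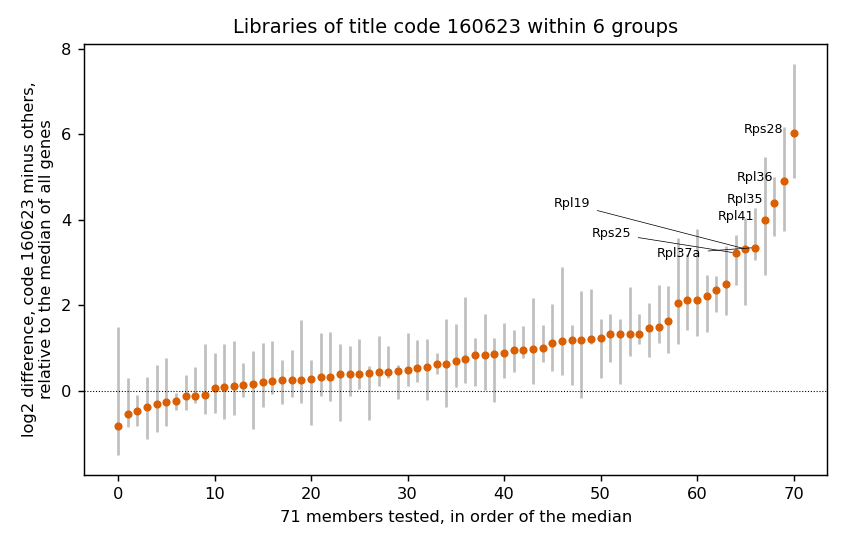
Difference between the N160623 library and the other libraries of its group (log2 of TPM + 1, minus the median of all genes), for 71 tested members in order of their median; dots are medians and lines the range over 6 groups. The 7 labelled members are above 2 in all 6 groups, and Rps28 reaches 7.65.

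Other facts of the libraries bear on these values. Rn45s, the precursor of ribosomal RNA, held 4.33 to 33.3% of the column sums, with medians of 29.6% in the N160623 libraries, 11.9% in A161219 and B161219, and 6.27% in A171227 to D171227. The summed level of 15 alveolar macrophage markers was 4565 to 17330 TPM in AM and 390 to 2191 TPM in the others. One library stood apart: in AM ip 20h A161219 the interstitial macrophage markers summed to 3914 TPM, against 149 to 402 in the other AM libraries, and the alveolar markers to 4565, the lowest sum in AM. A list of 10 neutrophil markers summed to 11240 to 56930 TPM in IM, against 24.8 to 443 in AM and 135 to 3061 in iMo. The 11 interstitial macrophage markers summed to 6259 to 7768 TPM in IM at 0h and 454 to 1262 at 2h. A list of 9 monocyte markers summed to 9366 to 13900 TPM in iMo at 0h, 2717 to 3604 in iMo at 20h and 3396 to 7139 in IM. In AM the same list summed to 2868 to 11560 TPM, so the sum alone does not set iMo apart. Gene by gene, 7 of the 9 were called higher and 1 lower in iMo than in AM at 0h by limma. Of all genes 16.2% were higher and 13.4% lower there. Against AM at 0h, IM also had 7 of the 9 higher and 1 lower. In bulk samples fewer cells of a type and less RNA per cell cannot be told apart.

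The share of all TPM held by the 85 members, with Rn45s left out of the total, summarises the time course. In iMo the 2 libraries of 0h had 4.13 and 5.10%. The share was 1.81 and 1.69% by 2h, 1.70 and 1.40% by 6h, and 3.76 and 3.20% by 20h. Every iMo library after LPS was below both of 0h, and both of 20h lay above all 4 of 2h and 6h. IM had 3.61 and 3.57% at 0h, then 1.08 and 2.26% at 2h, 1.08 and 1.91% at 6h, and 2.36 and 2.34% at 20h. In IM, too, no library after LPS reached those of 0h, and the higher library at 2h and at 6h is the N160623 library. AM ran from 2.43 to 3.62% at 0h and from 1.69 to 4.02% after LPS, so the AM groups overlapped at every time.

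**Figure D3:**
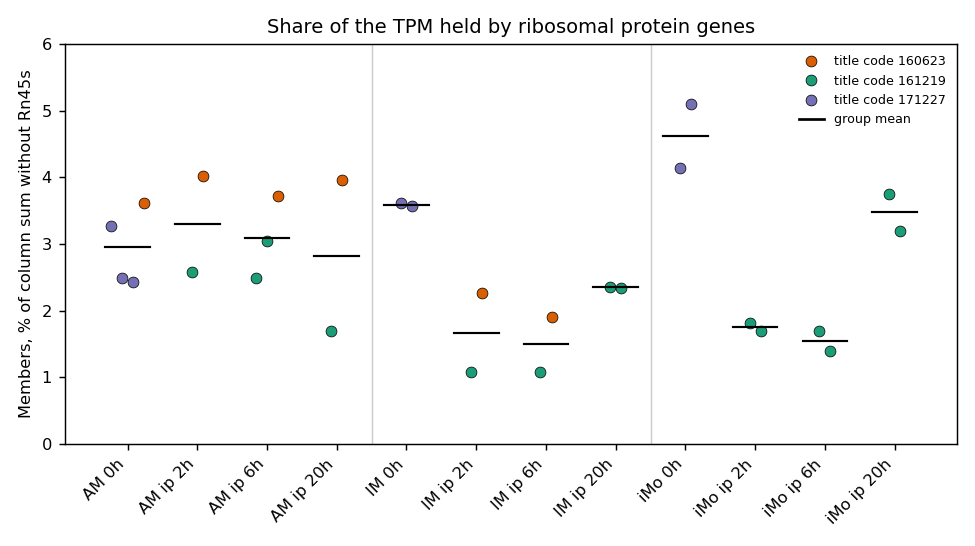
Share of the TPM column sum, without Rn45s, held by the 85 ribosomal protein genes in each of 27 libraries, coloured by title code; bars are group means. The iMo libraries lie at 4.13 and 5.10% at 0h and between 1.40 and 1.81% at 2h and 6h, while the AM groups overlap.

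In limma's test across 8937 genes, 21 of 71 members were higher in iMo than in AM before LPS and 1 was lower, against 16.2% of all genes higher and 13.4% lower. The members' median log2 fold change was 0.73 above that of all genes, which was itself 0.15. Rpl26, a protein near the exit tunnel of the large subunit, had 424 and 624 TPM in iMo against 287, 106, 144 and 117 TPM in AM. No AM library reached either iMo library, and the relative log2 fold change was 1.62 (SE 0.43, adjusted p = 0.0028, limma). Rpl38, a large-subunit protein known for selective translation of Hox mRNAs, had 30.5 and 25.6 TPM in iMo and 1.38 to 10.9 TPM in AM (relative log2 fold change 1.89, adjusted p = 0.0055, limma), with the lowest AM value in N160623. Rps16 (1.59), Rps9 (1.54), Rpl34 (1.53) and Rplp2 (1.10) were called in the same direction. The call count was 40 without the N160623 libraries and 10 after rescaling without Rn45s and Lars2, of which 7 were higher and 3 lower. Of all genes 3013 were called without the N160623 libraries and 3850 after rescaling, against 2649 with neither change. So the members called became fewer with rescaling while all genes called became more. The member count was 10 without AM 0h C171227, 13 without iMo 0h A171227 and 4 without iMo 0h B171227.

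The same comparison was made for IM and AM at 0h, with the same AM libraries. Of 71 members 4 were higher in IM and 1 lower, or 1 higher and 2 lower after rescaling without Rn45s and Lars2, beside 15% of all genes higher and 11% lower. These all-gene shares are without rescaling, where 2326 genes were called, against 3821 with it. The members' median was 0.37 above that of all genes. Rpl34, a large-subunit protein, had 365 and 388 TPM in IM against 265, 100, 150 and 146 TPM in AM (relative log2 fold change 1.26, SE 0.42, adjusted p = 0.027, limma). Rpl26, Rps14 and Rpl18 were also called higher. The count of 5 calls became 10 without the N160623 libraries, 11 without AM 0h A171227, 2 without AM 0h C171227, 3 without AM 0h N160623, 0 without IM 0h A171227 and 2 without IM 0h B171227. Between iMo and IM no member was called with limma, 2 members had an unadjusted p under 0.05, and 7.06% of all genes were called (0.739% higher and 6.32% lower in iMo). The members' median was 0.39 above that of all genes, and 59 of the 71 members lay above the all-gene median. Without the N160623 libraries 1 member was called, higher in iMo. The largest value was Rplp0, the base of the stalk, with 621 and 674 TPM in iMo and 274 and 338 TPM in IM (relative log2 fold change 0.94, adjusted p = 0.10, limma).

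Rps4l was the member called lower in IM and in iMo than in AM at 0h. It resembles Rps4x, a small-subunit protein encoded on the X chromosome, and RefSeq lists it as a transcribed pseudogene. At 0h it had 40.3, 31.8, 43.9 and 25.2 TPM in AM, 8.90 and 18.1 TPM in IM, and 10.4 and 12.7 TPM in iMo. All AM libraries lay above all IM and iMo libraries (relative log2 fold change -1.38 for IM, adjusted p = 0.0082, and -1.65 for iMo, adjusted p = 0.0037, limma). Over the ip times its relative log2 difference from AM was -1.94 in IM and -1.51 in iMo, both called. How reads were divided between Rps4l and Rps4x is uncertain.

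Many members fell in iMo after LPS. At 2h 40 of 71 were called lower and none higher, at 6h 48 and none, and at 20h 15 and none (2 higher and 1 lower after rescaling without Rn45s and Lars2); the share of all genes called lower was 24% at 2h, 23.1% at 6h and 14.8% at 20h, and called higher 8.41%, 5.95% and 7.39%. The members' median lay 1.14 log2 units below that of all genes at 2h, 1.39 below at 6h and 0.60 below at 20h, while the median of all genes was -0.42, -0.48 and -0.31. At 6h 20 of 32 tested small-subunit members and 28 of 39 large-subunit members fell. Among the 14 tested members with at least 50% unique windows 12 fell at 6h, and among the 55 with fewer 35 did.

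In the small subunit, Rps21 (chr2:180257377-180258445, 54.5% unique windows) had 304 and 433 TPM in iMo at 0h, 37.4 and 68.1 at 2h, 40.8 and 30.8 at 6h, and 114 and 90.6 at 20h. Every library after LPS was below both of 0h, and its fold change was the largest among the members at 6h (relative log2 fold change -2.84, SE 0.53, adjusted p = 8.7e-05, limma). Rps2, near the mRNA entry channel, had 127 and 156 TPM at 0h, 59.5 and 47.4 at 2h, and 56.2 and 54.5 at 6h, with every library of 2h and 6h below both of 0h. Rps10, at the mRNA entry side, had 142 and 225 TPM at 0h and 10.4 and 24.8 TPM at 2h, a relative log2 fold change of -2.96 (adjusted p = 0.0047, limma). Rps19, the gene most often mutated in Diamond-Blackfan anaemia, had 335 and 550 TPM at 0h and 46.9 and 45.8 TPM at 2h (-2.76, adjusted p = 0.0027, limma). At 20h Rps10 (-2.21) and Rps9 (-1.78) were still lower than at 0h.

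In the large subunit, Rpl27a had 23.3 and 43.6 TPM in iMo at 0h, 12 and 6.57 at 2h, 1.53 and 4.4 at 6h, and 14.8 and 11 at 20h. No library after LPS overlapped those of 0h, and it fell by 2.67 at 6h relative to all genes (SE 0.50, adjusted p = 8.7e-05, limma); it has no unique window. Rpl37 had 124 and 190 TPM at 0h, 15.4 and 21.4 at 2h, and 22.6 and 12 at 6h, a relative log2 fold change of -2.66 at 6h. Rpl38 moved on another course: 30.5 and 25.6 TPM at 0h, 2.04 and 2.68 at 2h, and 9.33 and 13.4 at 6h, so that it was called at 2h (-2.69) and not at 6h (-0.76, adjusted p = 0.14, limma).

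The stalk recruits the elongation factors. Rplp1 had 1362 and 2108 TPM in iMo at 0h, 209 and 218 at 2h, 252 and 239 at 6h, and 783 and 542 at 20h. It fell by 2.56 at 2h relative to all genes (SE 0.48, adjusted p = 7.3e-05, limma), and at 20h it remained lower by 1.07. Rplp2 was lower at 2h (-1.91), 6h (-1.60) and 20h (-1.04), and Rplp0, which anchors both, at 2h (-0.65) and 6h (-1.50). Rpl5 was called lower at 2h and 6h from low levels. Rps6 and Rpsa were called at no time in iMo.

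Treatment and title code coincide in iMo. When the model also held the code, for which AM at 0h is the only group with an A171227 to D171227 library beside another code, 3 members were called at 2h, 4 at 6h and 0 at 20h, all lower; the members' median relative to all genes was then -1.07 at 2h, -1.33 at 6h and -0.45 at 20h. The 6h count after rescaling without Rn45s and Lars2 was 26, with 25 lower and 1 higher, and without the N160623 libraries the 20h count was 34. Without iMo 0h B171227 the counts were 23 at 2h, 27 at 6h and 1 at 20h; without iMo ip 6h B161219 the 6h count was 31. At 20h it was 9 without iMo 0h A171227, 8 without iMo ip 20h A161219 and 1 without iMo ip 20h B161219. Rn45s held 5.32 to 6.27% in iMo at 0h and 9.26 to 25.0% after LPS, the neutrophil list 135 to 215 TPM and 336 to 3061 TPM, and the lymphocyte list 46.4 to 139 TPM and 223 to 5138 TPM. Of the 6 lymphocyte markers tested 1 rose and 1 fell at 2h, 2 rose and 1 fell at 6h, and 1 rose at 20h; their part in the result was not tested.

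The iMo libraries of 2h and of 20h all end in A161219 or B161219. Between them 6 members rose and none fell: Rpl38, Rps27l, Rps2, Rps18, Rplp1 and Rps20, against 14.7% of all genes higher and 10.3% lower. The 6 are 8.45% of the members tested, a share below that of all genes higher. The members' median was 0.60 above that of all genes. Rps2 had 59.5 and 47.4 TPM at 2h and 204 and 147 at 20h, with no overlap (relative log2 fold change 1.55, SE 0.38, adjusted p = 0.0022, limma). Rps27l, a p53-responsive copy of Rps27 with 72.9% unique windows, had 34.3 and 36.7 TPM at 2h and 173 and 116 at 20h (1.83, adjusted p = 0.010, limma). The count was 22 after rescaling without Rn45s and Lars2, 19 without the N160623 libraries, 16 with the code in the model, and 2 without iMo ip 2h B161219 or without iMo ip 20h A161219.

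**Figure D4:**
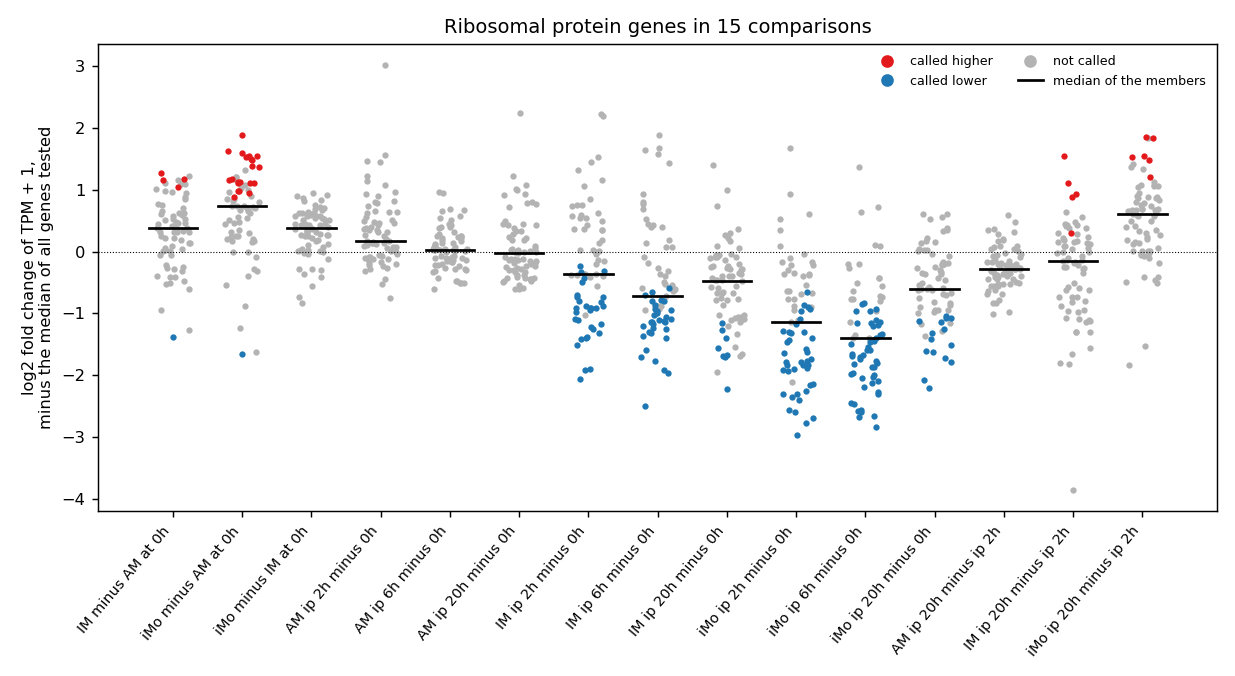
Log2 fold change of 71 tested members, minus the median of all genes tested, in 15 comparisons; red and blue dots are members called higher or lower by limma, grey dots were not called and bars are the members' medians. The medians in iMo are -1.14 at 2h, -1.39 at 6h and -0.60 at 20h, and no member is called in AM after LPS.

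IM showed lower members too, within a wider fall of all genes. At 2h 31 of 71 members were called lower and none higher, beside 40.8% of all genes lower and 7.99% higher (48.7% called), so the members' share of 43.7% is near the background. At 6h 33 fell, beside 20.8% of all genes lower and 4.63% higher, and at 20h 8 fell, beside 8.39% lower and 4.05% higher. Relative to the all-gene median, which was -0.79, -0.53 and -0.09, the members' median was -0.36 at 2h, -0.71 at 6h and -0.48 at 20h. The 2h median was -0.98 without the N160623 libraries, which leaves 1 library at 2h, -0.96 with no filter, -0.59 after quantile normalization, -0.69 with the code in the model, and 0.05 without IM ip 2h A161219. The 6h median was -1.16 with no filter. Rpl27a had 37.9 and 21.2 TPM at 0h, 3.38 and 2.77 at 2h, 3.34 and 2.01 at 6h, and 8.35 and 6.94 at 20h. All 6 libraries after LPS were below both of 0h, with a relative log2 fold change of -2.49 at 6h (SE 0.50, adjusted p = 0.00011, limma). Rplp1 had 1697 and 1408 TPM at 0h, 188 and 302 at 2h, 232 and 344 at 6h, and 480 and 629 at 20h, and it fell at all 3 times (-1.90, -1.91 and -1.40). Rps27l had 195 and 171 TPM at 0h and 15 and 47.7 TPM at 2h (-1.92), and Rps16 and Rps21 were still lower at 20h (-1.71 and -1.69).

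In IM, too, all libraries of 0h and all of ip carry different codes. With the code in the model the IM counts were 3 at 2h, 0 at 6h and 0 at 20h, and without the N160623 libraries the 20h count was 21. The 6h count was 13 without IM 0h A171227, 14 without IM 0h B171227, 19 without IM ip 6h A161219 and 15 without IM ip 6h N160623. The 20h count was 2 without either library of 0h, 0 without IM ip 20h A161219 and 1 without IM ip 20h B161219. In these libraries 5 of the 11 interstitial macrophage markers fell at 20h and 8 at 2h and at 6h, all 8 endothelial markers fell at 2h, and the neutrophil list summed to 11240 and 22570 TPM at 0h and 17280 to 56930 after LPS. The lymphocyte list summed to 158 and 293 TPM at 0h and 4204 and 5130 at 2h, while 5 of its 6 tested markers fell and 1 rose; their part in the result was not tested. From 2h to 20h 5 members rose, Rps27l (1.54), Rps18 (1.11) and Rps2 (0.92) the most. They are 7.04% of the members tested, a share below the 31.8% of all genes higher (7.17% were lower). The members' median was 0.16 below that of all genes. It was 0.06 above after quantile normalization, 0.46 above with no filter and 0.36 above without the N160623 libraries. The count was 15 after rescaling without Rn45s and Lars2 and 16 with the code in the model. It was also 15 without the N160623 libraries, where IM at 2h has 1 library, assumed to vary like the other groups.

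Members called lower in both populations can be counted, since IM and iMo share no libraries. At 2h 29 members were lower in both, 93.5% of the 31 in IM and 72.5% of the 40 in iMo; of all genes 1821 were, 50% of those lower in IM and 84.9% of those lower in iMo. At 6h 30 members were lower in both, 90.9% and 62.5%, beside 51.3% and 46.1% for all genes. At 20h there were 6, 75% and 40%, beside 39.6% and 22.5%. The overlap was not tested, and both populations end in A171227 and B171227 at 0h.

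In AM no member was called by limma at 2h, 6h or 20h, or between 20h and 2h, and 2, 0, 2 and 4 members had an unadjusted p under 0.05. Few genes of any kind were called there: 0.134% at 2h, 1.3% at 6h (0.929% higher), 0.112% at 20h (0.0448% higher and 0.0671% lower) and 0.0224% between 20h and 2h. Rps2 had 166, 101, 115 and 78.2 TPM at 0h, 127 and 100.0 at 2h, 105, 149 and 88.6 at 6h, and 57.9 and 107 at 20h. The lowest value at 0h, 2h and 6h is the N160623 library. Rplp1 had 1817, 611, 1429 and 840 TPM at 0h and 981 and 979 at 2h, inside the range of 0h. The largest value after LPS was Rps28 at 2h (3.01, adjusted p = 1, limma), which has 1 N160623 library of 2 at 2h and 1 of 4 at 0h. Without the N160623 libraries 31 members were called lower at 20h, beside 1719 genes in all, and 18 between 20h and 2h, beside 1066 genes. In both comparisons the one library left at 20h is AM ip 20h A161219, whose marker sums stand apart (above), and it is assumed to vary like the other groups; their part in these counts was not tested. With AM ip 20h N160623 alone left out, 2 were called lower at 20h.

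**Figure D5:**
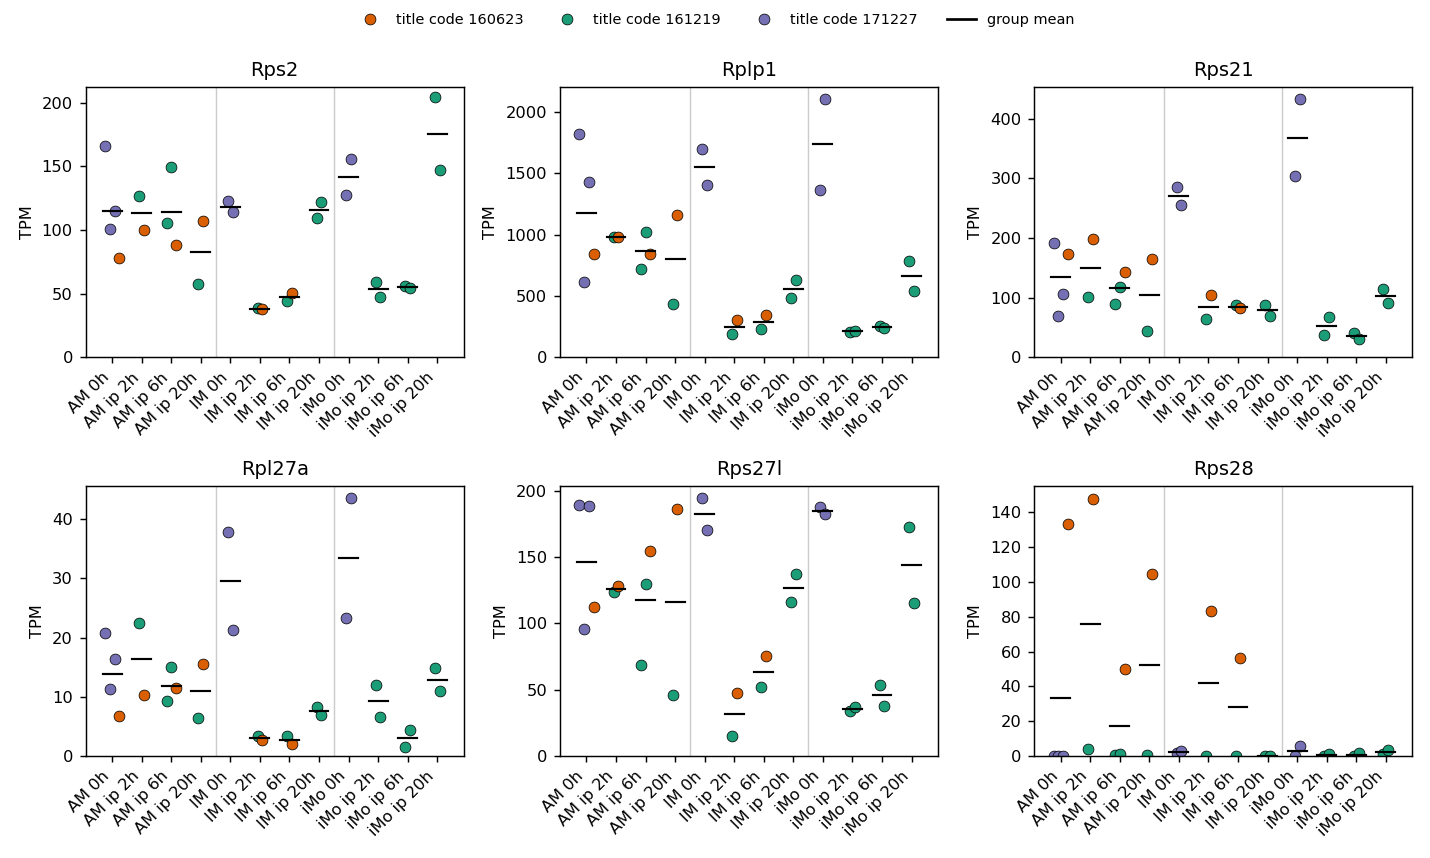
TPM of Rps2, Rplp1, Rps21, Rpl27a, Rps27l and Rps28 in every library, by group and coloured by title code; bars are group means. In iMo Rps21 goes from 304 and 433 TPM at 0h to 40.8 and 30.8 at 6h, and Rps28 is above 50 TPM only in N160623 libraries.

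The response itself was compared between cell types with a moderated F test over the 3 times. Between iMo and AM 28 of 71 members differed (39.4%, beside 17.3% of all genes), with median differences of -1.97, -1.77 and -0.82 log2 units at 2h, 6h and 20h. Rpl31 (adjusted p = 0.0027), Rps21 (0.0049), Rps18 (0.0054), Rpl22 (0.0064) and Rplp1 (0.0065) had the smallest adjusted p (limma). The count was 52 without the N160623 libraries, 16 after rescaling without Rn45s and Lars2, 17 without AM 0h C171227, 18 without iMo 0h A171227, 7 without iMo 0h B171227 and 18 without iMo ip 6h B161219. Between IM and AM 10 members differed (14.1%, beside 26.5% of all genes), led by Rpl27a, Rps18 and Rps2; this share is below the background. That count was 41 without the N160623 libraries, 29 with the code in the model, and 6, 17, 18, 21, 4 and 5 without AM ip 2h B161219, AM ip 2h N160623, AM ip 20h A161219, AM ip 20h N160623, IM 0h A171227 and IM 0h B171227. Between iMo and IM none differed by limma (2 with an unadjusted p under 0.05, beside 3.75% of all genes called).

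Averaged over the ip times, levels were lower in IM than in AM for 19 members and in iMo than in AM for 24, with 0 and 1 higher, beside 36.6% of all genes lower in IM (17.5% higher, 54.1% called) and 27.6% lower in iMo (18.3% higher, 46% called). The 19 are 26.8% of the members tested, a share below that of all genes lower in IM. The 24 of 71 lower in iMo are a share somewhat above the 27.6% of all genes lower. In either direction 35.2% of the members were called for iMo, beside the 46% of all genes. The members' median was 0.24 below that of all genes in IM and 0.61 below in iMo. The member higher in iMo was Rpl7l1, a relative of Rpl7 (0.68, adjusted p = 0.031, limma). Between iMo and IM 1 member, Rpl3l, was lower, beside 4.91% of all genes; the calls were 15 higher and 1 lower after rescaling without Rn45s and Lars2 and 4 higher and 1 lower after quantile normalization, so no direction is given. Without the N160623 libraries the counts of calls were 11 for IM against AM, 10 for iMo against AM and 2 for iMo against IM. The IM count was 42 after rescaling without Rn45s and Lars2. Without AM ip 20h A161219 the IM count was 39 and the iMo count 43, and without AM ip 20h N160623 they were 8 and 9. The IM count was 11 without IM ip 2h A161219 or IM ip 6h A161219, and the iMo count was 16, 14 and 13 without iMo ip 2h B161219, iMo ip 6h B161219 and iMo ip 20h B161219.

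Paralogue pairs mostly kept their order, given here as differences of log2(TPM + 1), with exceptions for Rpl22l1, Rps4l and Rpl10l. Rps27l was above Rps27 in every library, by 2.60 to 7.03; Rps27 has no unique window, so its level is uncertain. Rpl3l, a copy known from muscle, was below Rpl3 by 0.43 to 4.75 and Rpl39l, a copy known from testis, below Rpl39 by 3.03 or more. Rpl22l1, which can replace Rpl22 in the ribosome, was below it in all libraries of 0h (by 0.27 to 1.32) and above it by 0.33 in both libraries of iMo at 6h. It was also above in 1 library each of IM at 6h (0.54), iMo at 2h (0.20) and iMo at 20h (0.08). In iMo at 6h Rpl22 had 15.6 and 12.1 TPM, against 109 and 135 at 0h, and Rpl22l1 had 19.9 and 15.4 TPM, against 52.2 and 80.0. The change of this difference was not tested. Rps4l was below Rps4x except in AM 0h D171227 (above by 0.20) and AM ip 2h B161219 (0.10). Its mean difference from Rps4x at 0h was -0.68 in AM, -2.37 in IM and -2.96 in iMo. Rpl10l, at most 1.49 TPM in any library, was above Rpl10 only in AM ip 6h A161219 (0.34) and iMo ip 6h A161219 (0.87). Rpl10 had 0 TPM in both.

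Other genes of translation give the setting. The shares of all genes to set beside these counts are 24% lower in iMo at 2h, 23.1% lower at 6h, 14.8% lower and 7.39% higher at 20h, and 14.7% higher from 2h to 20h. Of 76 tested proteins of the mitochondrial ribosome 35 fell in iMo at 2h and 34 at 6h, with medians 0.51 and 0.61 below that of all genes, and 18 rose from 2h to 20h. Mrpl33 (-3.29 at 6h), Mrps21 (-2.14) and Mrps35 (-2.03), all of the mitochondrial ribosome, had the largest changes. Of 38 elongation and initiation factors 12 fell in iMo at 6h, led by Eef1b2 (-1.65), which recharges the elongation factor eEF1A, and the eIF3 subunits Eif3h (-1.58) and Eif3f (-1.45), with a list median 0.17 below all genes. At 20h Eef2, which moves the ribosome along the mRNA, was higher than at 0h (1.84, adjusted p = 0.0043, limma), and 4 factors were lower: Eif3f (-1.28), Eif3k (-1.23), Eif3h (-1.04) and Eif4g3 (-0.70). Of 8 fusion and ribosome-bound proteins 4 fell in iMo at 6h, among them Rpl36al (-1.25), Rack1 (-1.14) and Naca (-0.75). Of 59 genes of ribosome biogenesis 10 fell in iMo at 6h (Nop10 by 2.36), a smaller share than of all genes, and from 2h to 20h 16 rose, among them Nhp2 (1.94), Dkc1 (1.93) and Npm1 (1.76), with a list median 0.46 above all genes. Of 29 tested genes of growth control 3 rose and 2 fell in iMo at 6h, beside 5.95% of all genes higher and 23.1% lower. Among the 3 that rose were Ddit4, an inhibitor of mTORC1 (3.52), and Myc, an activator of ribosome biogenesis (3.24). Among the 2 that fell was Eif4ebp1, which blocks the cap-binding factor (-1.20). The list acts in both directions on growth, and no direction of growth is read from it. The iMo contrasts against 0h carry the same overlap with title code.

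Across the 27 libraries the non-member genes whose log2(TPM + 1) was most like the mean of the tested members were Atp5h (Pearson r = 0.94), a subunit of ATP synthase, Wdr89 (0.92), Rplp2-ps1 (0.92), Ybx1 (0.90), an mRNA-binding protein, Cox6c (0.89), a subunit of cytochrome c oxidase, Gm12191 (0.89), Naca (0.88) and Rpl37rt (0.88). Without the N160623 libraries the 8 values were 0.91 to 0.94 over 21 libraries. Rplp2-ps1 and Rpl37rt carry the names of copies of members, and libraries of one group are not independent points.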

How the data were processed

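The authors deposited TPM for 23594 genes in 45 libraries; STAR and HOMER, with the mm10 build, are listed per the submitters' processing notes, and versions, annotation and treatment of multiply matching reads are not given in the sources used. TPM keeps no read depth, so the replicates alone show precision (within-group Pearson r from 0.936 to 0.981; column sums of 331473 to 551635 TPM; 4068 to 7298 genes at 5 TPM or more; no identical columns). Row names did not match the values in the 18 nasal columns (r with the other columns of 0.01 to 0.025; median Actb 0 against 3721 TPM), which are not analysed here.

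Tests used log2(TPM + 1), which understates changes of low genes. With limma 3.58.1 in R 4.3.3, a single model of all 12 groups was run on the 8937 genes that reached 5 TPM in 2 or more of the 27 libraries; 18 contrasts and 3 F tests were taken, with Benjamini-Hochberg adjustment within each and calls at an adjusted p under 0.05. Tests are of the fold change itself; relative values subtract the median of all genes tested. The script was tested on simulated data with 200 changed genes. Named members are the 5 highest and 5 lowest, the 3 largest called changes per contrast and direction with a mean of 10 TPM or more, paralogue pairs, and Rplp0, Rplp1, Rplp2, Rpl5, Rpl11, Rps6 and Rpsa; for each list of other genes up to 3 of the largest called changes, and the 8 genes most like the members. Others named were chosen after their values were seen. The members, lists and tests were chosen with earlier results of these data known. Alternatives were a pseudocount of 0.1 TPM, no filter, quantile normalization, rescaling without Rn45s and Lars2, centring, title code as a covariate, a replicate block, array weights, each library left out, and, chosen after seeing the data, leaving out the 6 N160623 libraries (titles with a code and no letter) and splitting by unique share. Sequences are from RefSeq; Python 3 scripts used pandas and SciPy. Values of 2 genes are not reported here.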

Additional observations from a re-analysis of the deposited data

Results flagged for a closer look

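In AM at 0h, the only group of 4 libraries, 3 of 40 named members had 1 library standing far from the rest, and each time it was N160623: Rps28 at 133 TPM, Rpl36 at 54.8 TPM and Rpl41 at 583 TPM. The other 3 libraries had 0 TPM of Rps28, 1.24 to 2.82 TPM of Rpl36 and 34.9 to 61.3 TPM of Rpl41. The rule used marks about 1 group in 20 by chance.

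The response to ip LPS differed between cell types by limma's F test for 28 of 71 members between iMo and AM (39.4%, beside 17.3% of all genes). Between IM and AM it did for 10 members (14.1%), a share below the 26.5% of all genes.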

How the results depend on the processing

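TPM carries no depth, groups of 2 limit every test, and the cause of the changes below was not tested. Counts are of members called. With a pseudocount of 0.1 TPM all 21 counts stayed within 1.5 times.

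With no filter, counts became 3 (IM against AM at 0h), 12 (iMo against AM at 0h), 20 and 5 (IM at 6h and 20h), 9 (iMo at 20h), 3 (IM, 20h against 2h), 12, 15 and 0 (over ip times: IM against AM, iMo against AM, iMo against IM), and 4 and 15 (F tests: IM and iMo against AM). Quantile normalization gave 10 (iMo against AM at 0h), 19 and 5 (IM at 6h and 20h), 28 and 5 (iMo at 6h and 20h), 9 and 16 (20h against 2h: IM, iMo), 5 (iMo against IM over ip times, 4 of them higher) and 17 (F, iMo against AM). Rescaling without Rn45s and Lars2 gave 3 and 10 (at 0h: IM and iMo against AM), 26 and 3 (iMo at 6h and 20h), 15 and 22 (20h against 2h: IM, iMo), 42 and 16 (over ip times: IM against AM, iMo against IM) and 16 (F, iMo against AM). The calls turned direction for IM against AM at 0h, iMo at 20h and iMo against IM over ip times. Centring gave 8 and 2 (at 0h: IM against AM, iMo against IM), 14 and 14 (IM at 2h and 6h), 7 (IM against AM over ip times), and 4 and 1 (F: IM against AM, iMo against IM). Array weights gave 11, 41 and 2 (at 0h: IM against AM, iMo against AM, iMo against IM), 1 (AM at 6h), 19 (IM at 20h), 33 (iMo at 20h), 12 (iMo, 20h against 2h), and 10 and 15 (over ip times: IM and iMo against AM).

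Title code in the model gave 10 and 1 (at 0h: IM against AM, iMo against IM), 3, 0 and 0 (IM at 2h, 6h and 20h), 3, 4 and 0 (iMo at those times), 16 and 16 (20h against 2h: IM, iMo), 31 and 10 (over ip times: IM and iMo against AM) and 29 (F, IM against AM). Leaving out the 6 N160623 libraries, chosen after seeing the data, gave 10, 40 and 1 (at 0h: IM against AM, iMo against AM, iMo against IM), 31 (AM at 20h), 21 (IM at 20h), 34 (iMo at 20h), 18, 15 and 19 (20h against 2h: AM, IM, iMo), 11, 10 and 2 (over ip times, in the order of the 0h values), and 41 and 52 (F: IM and iMo against AM).

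Whether title letter and code pair the samples is not settled. Deviations of samples sharing both had a median r of 0.084 (-0.21 to 0.618, 62 pairs). The median was 0.015 for the same code with another letter (55 pairs) and -0.019 for other codes (215 pairs). In groups of 2 the deviations mirror each other, so this check cannot exclude pairing. A replicate block on letter and code gave 2, 2 and 1 (at 0h: IM against AM, both lower, iMo against AM, iMo against IM), 0 at 2h, 6h and 20h in both IM and iMo, 11 and 16 (20h against 2h: IM, iMo), 10 and 1 (over ip times: iMo against AM, iMo against IM, the latter higher), and 4 and 13 (F: IM and iMo against AM). With the block the members' median relative to all genes was -0.27, -0.51 and 0.04 in IM and -0.67, -0.89 and -0.06 in iMo (2h, 6h, 20h).

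Leaving out 1 library at a time gave 0 to 11, 4 to 27 and 0 to 0 at 0h (IM against AM, iMo against AM, iMo against IM), 0 to 0, 0 to 0 and 0 to 2 in AM (2h, 6h, 20h), 22 to 28, 13 to 19 and 0 to 2 in IM, 23 to 34, 27 to 43 and 1 to 9 in iMo, 0 to 0, 4 to 7 and 2 to 5 for 20h against 2h (AM, IM, iMo), 8 to 39, 9 to 43 and 0 to 2 over ip times, and 4 to 21, 7 to 38 and 0 to 1 for the F tests, in the same order of cell types.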
